A study of Mus musculus with 15 samples.

Results

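In cultured white adipocytes moved from 37°C to 31°C, 47 genes stood apart from their 37°C level after 1 day at the cool temperature and close to it in cells kept cool for 12 days. Of these, 19 were higher and 28 were lower at day 1. They were chosen from the regularized log2 values deposited by the authors, a log2 scale on which genes with few counts are drawn toward their mean. A gene was kept when its mean raw count over the 15 libraries was 50 or more, when the day 1 mean differed from the day 0 mean by at least 0.8 and when the day 12 mean differed from it by at most 0.2. Of 18804 genes in the count table, 12650 met the count minimum, and 47 of those 12650 met both limits. All 3 pairs of groups enter that choice, so the differences of the 47 genes between groups are given as a description with no p-value.

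The cells were adipocytes grown from mesenchymal stem cells of C57BL/6J mice and induced with methylisobutylxanthine, dexamethasone, insulin and a thiazolidinedione, which the sample labels name as troglitazone. The study's methods give the ear as the source of the stem cells. The day 0 group stayed at 37°C throughout, the day 1 group went to 31°C at day 15 of differentiation, and the day 12 group went to 31°C after 4 days of adipogenesis. Every group was harvested at day 16 and held 5 libraries. Whether these came from separate mice or from dishes of 1 preparation was not stated, so each SD and SE refers to libraries and may be technical. The groups were separate cultures in which the same cells were not followed, and the length of stay at 31°C cannot be told apart from the stage of differentiation at the move.

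Total counts ranged from 64648178 to 133270973 per library, and the biological coefficient of variation fitted with edgeR was 5.25%. All 8 adipocyte markers were detected, and summed to 2430 to 2750 counts-per-million units (CPM) at day 0, 3060 to 3270 at day 1 and 2980 to 3230 at day 12, but the sums hide opposite differences. A gene was called when its Benjamini-Hochberg adjusted p in edgeR's quasi-likelihood test was under 0.05 and its fold change over 1.5. Fabp4 was called higher at day 1 and Cidec and Lep lower (log2 fold changes of 0.76, -2.62 and -0.65), and 1 marker was called higher and 4 lower at day 12, when Adipoq stood at -1.24. Stromal progenitor markers summed to 1340 to 1490 CPM, with Ly6a at -1.42 and Pdgfra at 0.34 at day 12. Endothelial, keratinocyte and melanocyte markers summed to at most 3.44 CPM in any library, and mesothelial markers to 0.745 to 1.37 CPM at days 0 and 1 and 24.3 to 40.2 CPM at day 12. Of the chondrocyte markers, Comp, which other connective tissue cells express as well, averaged 3720, 3710 and 919 CPM at days 0, 1 and 12 and Col2a1 149, 155 and 182 CPM. These are bulk cultures, in which fewer cells of a type and less RNA per cell cannot be told apart.

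A cell that meets reactive oxygen or electrophiles frees the transcription factor NRF2 (gene Nfe2l2) from its inhibitor KEAP1. NRF2 then binds antioxidant response elements and turns on enzymes that make glutathione, reduce quinones and repair oxidised peroxiredoxins. Heme breakdown and iron uptake bear on the same chemistry, since free iron feeds the formation of radicals, and in adipocytes these enzymes also deal with reactive aldehydes from oxidised lipids.

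Few of the genes past the day 1 limit lay near day 0 at day 12. Of the 705 genes past the day 1 limit, 200 were higher and 505 were lower, and 6.67% of the 705 met the day 12 limit, against 37.5% of all 12650 genes. Of the rest, 647 lay outside the day 12 limit on the same side as at day 1 and 11 lay outside it on the opposite side. The share kept was 9.5% of the genes higher at day 1 and 5.54% of those lower at day 1. Both shares rest on the regularized scale, and the number of lower genes kept rose under other scalings, as given at the end. The day 1 and day 12 differences share the day 0 libraries.

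**Figure D1:**
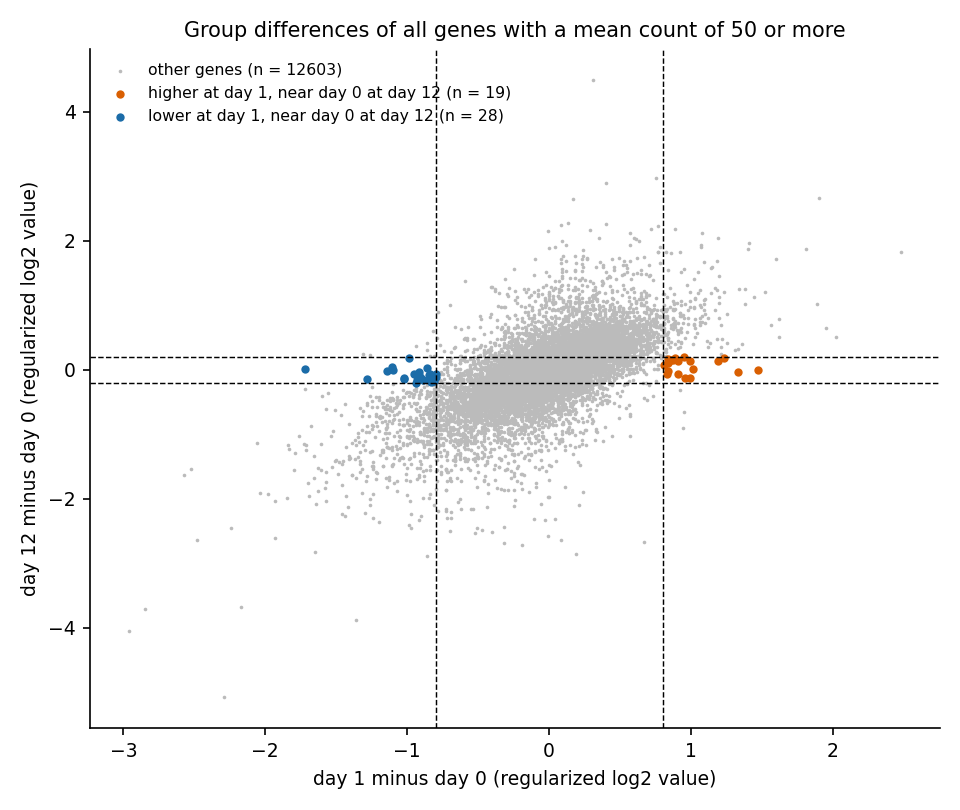
Difference from the day 0 mean at day 1 (x axis) and at day 12 (y axis), both in regularized log2 values, for the 12650 genes with a mean raw count of 50 or more. Dashed lines mark the limits of 0.8 at day 1 and 0.2 at day 12, and the 19 genes higher and 28 genes lower at day 1 are coloured.

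Some genes passed the limits narrowly. Just inside the day 1 limit were Mpzl1 (0.81), Gab3 (0.833), 2810002D19Rik (-0.803) and Cisd3 (-0.804), and just outside it were Trnau1ap (0.792), Fam71e1 (0.769), Echdc3 (-0.799) and Mpp7 (-0.796). At day 12, B430319G15Rik (0.198), Gsta4 (0.188), Tra2a (-0.197) and Ralgps1 (-0.189) lay just inside the limit, and Rhbdd3 (0.207), Zxdc (0.209), Pola1 (0.214) and Hs6st1 (-0.214) just outside. The members with the fewest counts were Sectm1a and Chodl, with means of 125 and 130, and no gene that met both limits was lost to the count minimum.

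Among the genes higher at day 1, the 3 with the largest difference on the regularized scale, Nqo1 (1.47), Srxn1 (1.33) and Gsta4 (1.23), are enzymes of the antioxidant response. The RNA-binding gene Hnrpdl (1.19) came next among them. Nqo1, which reduces quinones with NAD(P)H, lies at chr8:107388225-107403205 of GRCm38. Its level, in CPM scaled by the trimmed mean of M values (TMM), was 185, 160, 171, 173 and 191 CPM at day 0. It stood at 490, 478, 494, 529 and 511 CPM at day 1 and at 182, 190, 166, 155 and 187 CPM at day 12. Every day 1 library was above every library of the other groups, which overlapped. The day 1 mean was 2.84-fold that of day 0, and the log2 fold change fitted with edgeR was 1.51 ± 0.049 (SE) at day 1 and 0.00 ± 0.049 at day 12.

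Srxn1 (chr2:152105524-152111376), the sulfiredoxin that restores overoxidised peroxiredoxins, was at 139, 121, 126, 136 and 145 CPM at day 0. It was at 311, 335, 345, 363 and 372 CPM at day 1 and at 128, 127, 129, 126 and 137 CPM at day 12. The day 1 values again lay apart, with a mean 2.59-fold that of day 0, and the day 12 values fell within the span of day 0.

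Gclc (chr9:77754535-77794489), the catalytic subunit of the ligase that begins glutathione synthesis, had 59.2, 58.0, 55.3, 57.7 and 61.9 CPM at day 0, 117, 118, 122, 127 and 119 CPM at day 1 and 56.6, 64.0, 59.1, 56.3 and 60.0 CPM at day 12. Its day 1 mean was 2.06-fold that of day 0, and the day 12 libraries overlapped day 0. Gsta4 (chr9:78191966-78209349), a glutathione transferase that acts on the lipid aldehyde 4-hydroxynonenal, had 25.4, 24.6, 28.2, 26.2 and 25.6 CPM at day 0, 65.9, 64.8, 58.0, 65.8 and 64.2 CPM at day 1 and 29.0, 33.3, 29.0, 27.7 and 31.2 CPM at day 12. The day 1 libraries of Gsta4 did not overlap the others, and 4 of the 5 day 12 libraries lay above the highest library of day 0.

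Levels of different genes can be compared per kilobase of exon. On that scale the mean day 1 level was 322 CPM for Nqo1, 122 for Srxn1, 55.2 for Blvrb, 50.4 for Gsta4 and 32.0 for Gclc. Nqo1 was the most abundant of the 18 higher genes with an exon length, and Gab3 the least, at 0.790 CPM.

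**Figure D2:**
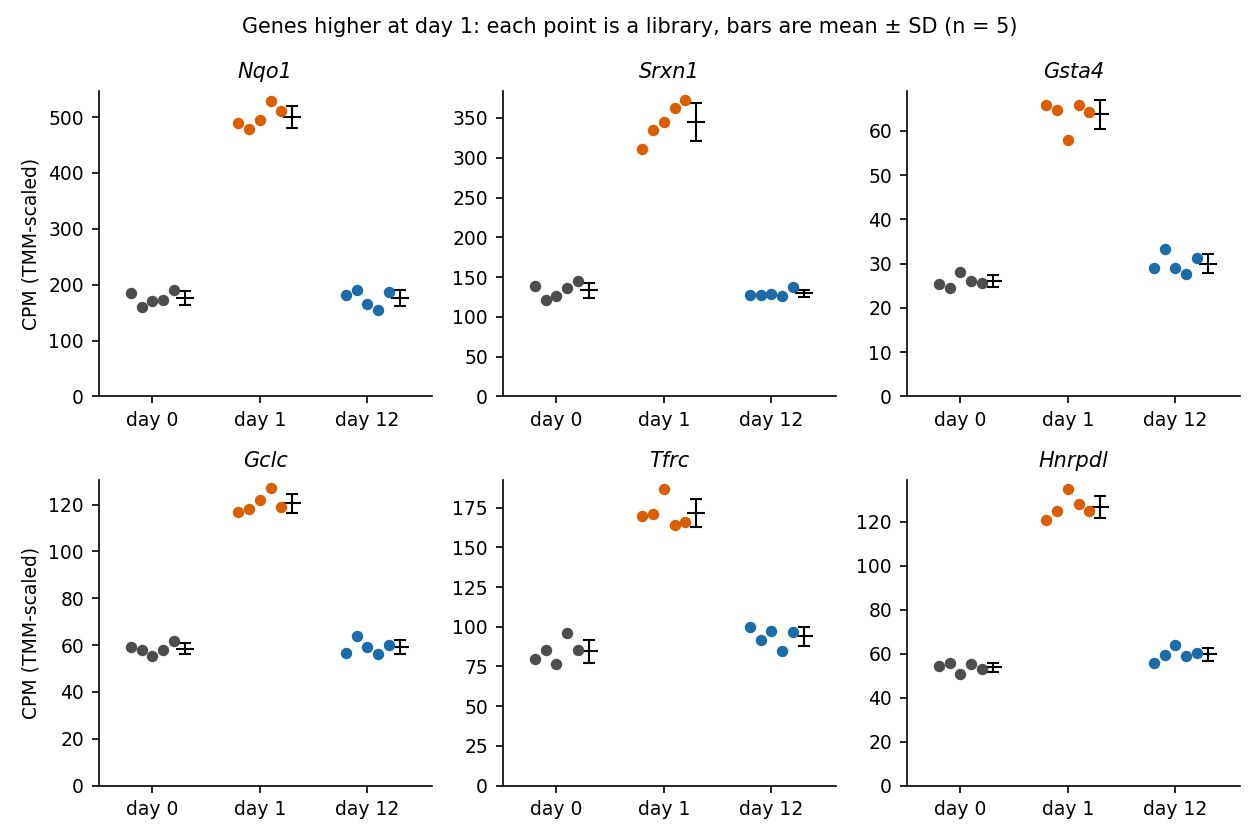
TMM-scaled CPM (y axis, from 0) of 6 genes higher at day 1, by group (x axis), with 1 point per library, 5 libraries per group, and bars for mean ± SD. All day 1 points lie above those of day 0 and day 12, which overlap in Nqo1, Srxn1, Gsta4, Gclc and Tfrc but not in Hnrpdl.

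The promoters of 4 higher genes are shown because Srxn1, Adh7 and Slc2a9 held the AP-1 site TGANTCA and Nqo1, the gene furthest above day 0, held a TATA box. The windows are from RefSeq on GRCm38.p6, read along the gene from 250 bases before to 50 bases after the annotated start. They are chr8:107403156-107403455 for Nqo1 (minus strand), chr2:152105274-152105573 for Srxn1 (plus), chr3:138217523-138217822 for Adh7 (plus) and chr5:38483336-38483635 for Slc2a9 (minus). The starts used for Adh7 and Slc2a9 lie inside the spans of those genes and not at their outer ends. Capitals mark the AP-1 site TGANTCA, the antioxidant response element core TGACNNNGC and the TATA box TATAAA on either strand.
Nqo1: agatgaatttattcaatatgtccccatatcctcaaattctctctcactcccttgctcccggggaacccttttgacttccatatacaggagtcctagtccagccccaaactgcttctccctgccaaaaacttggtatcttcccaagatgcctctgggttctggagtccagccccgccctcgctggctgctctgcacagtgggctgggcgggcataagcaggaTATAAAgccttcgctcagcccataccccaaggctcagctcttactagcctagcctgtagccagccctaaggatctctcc
Srxn1: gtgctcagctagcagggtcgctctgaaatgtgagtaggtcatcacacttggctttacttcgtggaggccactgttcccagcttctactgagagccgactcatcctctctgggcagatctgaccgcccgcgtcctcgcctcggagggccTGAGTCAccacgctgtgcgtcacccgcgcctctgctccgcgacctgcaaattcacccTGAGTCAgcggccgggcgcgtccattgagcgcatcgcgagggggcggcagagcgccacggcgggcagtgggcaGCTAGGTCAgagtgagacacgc
Adh7: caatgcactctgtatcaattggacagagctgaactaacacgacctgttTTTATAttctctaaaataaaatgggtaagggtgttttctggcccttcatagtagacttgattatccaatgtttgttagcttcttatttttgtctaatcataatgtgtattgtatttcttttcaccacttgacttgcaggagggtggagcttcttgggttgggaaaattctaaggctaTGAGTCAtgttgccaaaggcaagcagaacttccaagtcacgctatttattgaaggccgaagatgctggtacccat
Slc2a9: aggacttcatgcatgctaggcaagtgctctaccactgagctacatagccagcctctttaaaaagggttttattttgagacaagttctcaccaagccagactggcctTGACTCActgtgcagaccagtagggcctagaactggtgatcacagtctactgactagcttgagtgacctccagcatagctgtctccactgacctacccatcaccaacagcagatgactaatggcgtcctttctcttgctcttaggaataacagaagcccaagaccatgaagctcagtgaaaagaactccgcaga

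Srxn1 held the AP-1 site at 2 places, 102 to 96 and 45 to 39 bases before the start, and the antioxidant core 28 to 36 bases after it on the opposite strand. Adh7 held the AP-1 site 25 to 19 bases before the start, and TATAAA 202 to 197 bases before it on the opposite strand. The AP-1 site of Slc2a9 lay 144 to 138 bases and the TATA box of Nqo1 29 to 24 bases before the start.

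Of the 47 genes, 35 had a promoter in the RefSeq table. The others were Gsta4, Gclc, Cdh19, Il17ra, Afg3l2, Mfng, Gab3, Ccl2, Rap1gds1, Zdhhc2, Sectm1a and C1galt1c1. The AP-1 site was found in 3 of 12 promoters of higher genes (25.0%) and in 3 of 23 of lower genes (13%; Mylk, Rfx3 and Zfhx2), against 4.85% of the 10021 promoters of genes with the same count minimum. The antioxidant core was found in 1 of 12 (8.33%) and in 3 of 23 (13%; 9530077C05Rik, Irak4 and Tmem150a), against 14.8% of all. It was added to the search after the members had been seen, and where TGACTCA is followed by GC both motifs match. TATAAA was found in 4 of 12 promoters of higher genes (33.3%; Adh7, C920006O11Rik, Nqo1 and Sphk1) and in 1 of 23 of lower genes (4.35%; Prmt2), against 6.94% of all. The other motifs among the 13 searched on both strands are given as shares of the higher, lower and all promoters. GGGCGG was found in 58.3%, 65.2% and 65.7%, CCAAT in 41.7%, 43.5% and 39.2%, the heat shock motif GAANNTTC in 8.33%, 21.7% and 5.6%, and the nuclear receptor motif AGGTCA in 25.0%, 8.7% and 11.7%. The NRF1 motif TGCGCA and the E-box CACGTG were found in no promoter of a higher gene, in 21.7% and 8.7% of those of lower genes, and in 14.6% and 10.4% of all. The cAMP response element TGACGTCA and the ETS site CCGGAAGT were each found in 1 lower gene, Tra2a and Echdc1, against 3.25% and 8.27% of all. TGATGNAA of CEBP and ATF factors and TTCNNNGAA of STAT factors were found in none of the 35, against 2.17% and 6.83% of all. A match of so few letters describes the window and is not a binding site. Median promoter GC content was 59.5% for higher, 62.3% for lower and 61.3% for all genes, and median exon length was 3780, 3930 and 4530 bases.

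Gclc and Gsta4 lie 397 kb apart on chromosome 9, and the lncRNA C920006O11Rik, also higher at day 1, lies 13.1 kb from Gsta4. C920006O11Rik was at 4.30 ± 0.394, 8.70 ± 0.615 and 5.00 ± 0.477 CPM at days 0, 1 and 12 (mean ± SD, n = 5 libraries each, as for all triplets of levels in that order). The other tested genes between Gclc and Gsta4 showed smaller day 1 differences by edgeR's quasi-likelihood test. Fbxo9, a ubiquitin ligase subunit, had a log2 fold change of 0.37 (adjusted p = 7.74e-09), Ick, a ciliary kinase, of 0.16 (adjusted p = 0.000104), and Elovl5, a fatty acid elongase, of -0.14 (adjusted p = 0.000565). Within 1000 kb of each other also lay Syt3 and Atf5 on chromosome 7, both lower and 412 kb apart, and Adh7 and Rap1gds1 on chromosome 3, 694 kb apart and in opposite directions. Between Syt3 and Atf5, Fam71e1 was called higher at day 1 (1.05, adjusted p = 2.33e-09) and Spib lower (-2.94, adjusted p = 0.000203). The day 1 difference of Spib on the regularized scale was -0.28.

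Adh7 and Blvrb are further known targets of NRF2. Adh7, an alcohol dehydrogenase that also oxidises retinol, had 25.0, 23.4, 22.5, 22.5 and 23.0 CPM at day 0, 44.6, 45.7, 42.7, 47.3 and 47.1 CPM at day 1 and 23.5, 22.7, 22.4, 20.1 and 23.6 CPM at day 12. Blvrb, which reduces biliverdin and flavins, had 83.5, 73.5, 76.3, 85.2 and 85.8 CPM at day 0, 150, 155, 144, 158 and 161 CPM at day 1 and 91.9, 93.3, 94.3, 89.5 and 92.5 CPM at day 12. Day 1 lay apart for both, and the day 12 libraries overlapped day 0 for Adh7 but lay above all of day 0 for Blvrb, whose day 12 mean was 1.14-fold that of day 0.

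Other known targets of NRF2 were read from a list of 39 genes, drawn up after the 47 genes had been seen, of which 37 were tested. Leaving out the 6 members Adh7, Blvrb, Gclc, Gsta4, Nqo1 and Srxn1, 9 of 31 genes were called higher (29%) and 1 lower (3.23%) at day 1, with a median log2 fold change of 0.38, against -0.009 over all 14293 genes tested, of which 7.71% were called higher and 13.4% lower. At day 12, 2 of the 31 were called higher (6.45%) and 6 lower (19.4%), with a median of 0.03, against 0.012 over all genes, of which 13% were called higher and 16.2% lower. These shares over all genes hold beside each list below, and each list's own shares are given with its counts.

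The peroxiredoxin Prdx1 rose at day 1 (1.24 ± 0.040, adjusted p = 2.89e-18) and at day 12 it passed the test short of the fold limit (0.26 ± 0.039, adjusted p = 1.79e-06), with levels of 677 ± 46.6, 1590 ± 53.9 and 812 ± 35.1 CPM. Hmox1, the heme oxygenase, rose at day 1 (0.97 ± 0.043, adjusted p = 9.55e-16) and fell at day 12 (-0.68 ± 0.043, adjusted p = 5.14e-13). Gclm, the partner subunit of Gclc, rose at day 1 (0.95 ± 0.046, adjusted p = 4.76e-15) and was below day 0 at day 12, short of the fold limit (-0.33 ± 0.046, adjusted p = 6.07e-07). The cystine carrier Slc7a11 was called higher at both times (1.17 ± 0.085, adjusted p = 1.07e-11, after 1 day, and 0.77 ± 0.086, adjusted p = 1.49e-08, after 12 days). The others called higher at day 1 were Pgd (0.94), Txnrd1 (0.81), Cbr3 (0.72), Esd (0.70) and Gsr (0.68), and Ephx1, an epoxide hydrolase, was called lower (-0.70). Of the 9 called higher, Esd, which hydrolyses S-formylglutathione, came nearest to day 0 at day 12 (-0.06 ± 0.032, adjusted p = 0.102) but missed the day 1 limit of the choice. Nfe2l2 itself was at 236 ± 5.83, 181 ± 4.50 and 173 ± 6.20 CPM (day 1 -0.38 ± 0.028, adjusted p = 1.32e-11) and Keap1 at 73.1 ± 1.58, 98.1 ± 2.96 and 68.3 ± 1.91 CPM (day 1 0.43 ± 0.028, adjusted p = 2.3e-12), both short of the fold limit.

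**Figure D3:**
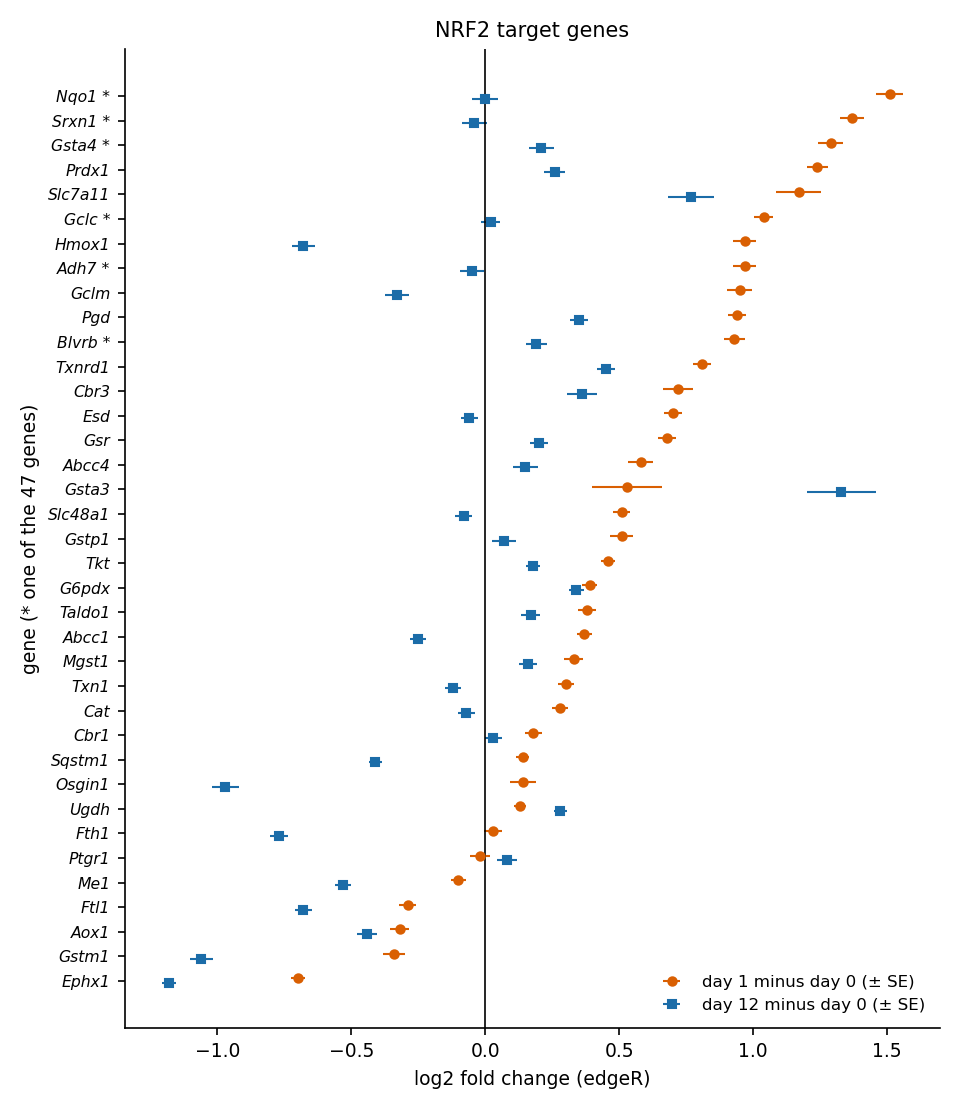
Log2 fold change from day 0 (x axis, edgeR, bars for SE) at day 1 (circles) and day 12 (squares) for the 37 tested genes of the NRF2 target list (y axis), ordered by the day 1 value. Asterisks mark the 6 genes that are among the 47, and day 1 values run from -0.70 for Ephx1 to 1.51 for Nqo1.

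On a wider list of glutathione and antioxidant genes, which shares many genes with the first, 7 of the 35 that are not members were called higher (20%) and 1 lower (2.86%) at day 1, with a median of 0.30. At day 12, 3 were called higher (8.57%) and 10 lower (28.6%), with a median of -0.03. The one called lower at day 1 was Gpx8, a peroxidase of the endoplasmic reticulum (-1.02).

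Macrophage and leukocyte markers were highest at day 1 too. They summed to 24.5 to 31.0 CPM in the day 0 libraries, 40.3 to 45.8 in those of day 1 and 30.6 to 35.1 in those of day 12, most of it from Cd14, with means of 20.7, 33.9 and 23.8 CPM. Of the 8 markers 4 were tested, Csf1r and Cd14 were called higher and Emr1 lower at day 1, and Cd3e was at or under 3 counts in every library. Their part in the levels of the 47 genes was not tested.

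Iron and heme handling held Tfrc and Cisd3 besides Blvrb. Tfrc, the transferrin receptor that brings iron into the cell, had 79.9, 85.6, 76.5, 95.8 and 85.3 CPM at day 0, 170, 171, 187, 164 and 166 CPM at day 1 and 100, 91.9, 97.2, 84.5 and 96.7 CPM at day 12. Cisd3, an iron-sulfur protein of mitochondria, had 21.7, 20.4, 22.0, 21.4 and 20.9 CPM at day 0, 11.1, 11.4, 11.2, 11.8 and 12.1 CPM at day 1 and 19.3, 19.7, 19.4, 21.1 and 19.1 CPM at day 12. At day 1 Tfrc was 2.03-fold higher and Cisd3 1.84-fold lower than at day 0, and for both the day 12 libraries overlapped day 0. Of 32 other genes on a list of iron and heme genes, also drawn up after the members had been seen, 3 were called higher (9.38%) and 3 lower (9.38%) at day 1, with a median of 0.22. At day 12 these were 4 (12.5%) and 8 (25%), with a median of 0.16. The metal carrier Slc39a8 was called higher after 1 day (1.13 ± 0.055, adjusted p = 4.94e-15) and after 12 days (1.57 ± 0.054, adjusted p = 3.71e-18).

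Of the RNA-binding members described here, 1 was higher and 2 were lower. Hnrpdl (now Hnrnpdl), a nuclear ribonucleoprotein, had 54.3, 55.7, 50.9, 55.5 and 52.9 CPM at day 0, 121, 125, 135, 128 and 125 CPM at day 1 and 55.8, 59.3, 64.1, 59.0 and 60.5 CPM at day 12. Tra2a, a splicing activator, had 42.5, 43.3, 42.4, 41.7 and 41.0 CPM at day 0, 20.8, 21.1, 22.1, 21.0 and 20.3 CPM at day 1 and 38.0, 35.0, 37.2, 37.2 and 36.1 CPM at day 12. Srek1, a splicing regulator rich in arginine and serine, had 33.2, 34.1, 35.0, 33.3 and 34.9 CPM at day 0, 17.8, 17.1, 16.9, 16.5 and 15.8 CPM at day 1 and 32.0, 31.3, 34.3, 31.9 and 35.1 CPM at day 12. Day 1 stood apart in each, and the day 12 libraries overlapped day 0 for Srek1 but lay above it for Hnrpdl and below it for Tra2a.

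On a list of splicing factors and their kinases, which holds Hnrpdl and Tra2a, 3 of 34 other genes were called higher (8.82%) and 6 lower (17.6%) at day 1, with a median of -0.03. At day 12 these were 6 (17.6%) and 0, with a median of 0.02. Hnrnpd, a close relative of Hnrpdl, was called higher after 1 day (0.90 ± 0.032, adjusted p = 2.01e-17) and after 12 days (0.66 ± 0.032, adjusted p = 2.81e-15). Ddx17, an RNA helicase, was called lower at day 1 (-1.15 ± 0.034, adjusted p = 5.47e-19) and was short of the fold limit at day 12 (-0.43 ± 0.033, adjusted p = 1.77e-11). Hnrnpa1 was called lower at day 1 (-1.02 ± 0.13, adjusted p = 2.18e-07) and not at day 12 (-0.01 ± 0.12, adjusted p = 0.946).

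**Figure D4:**
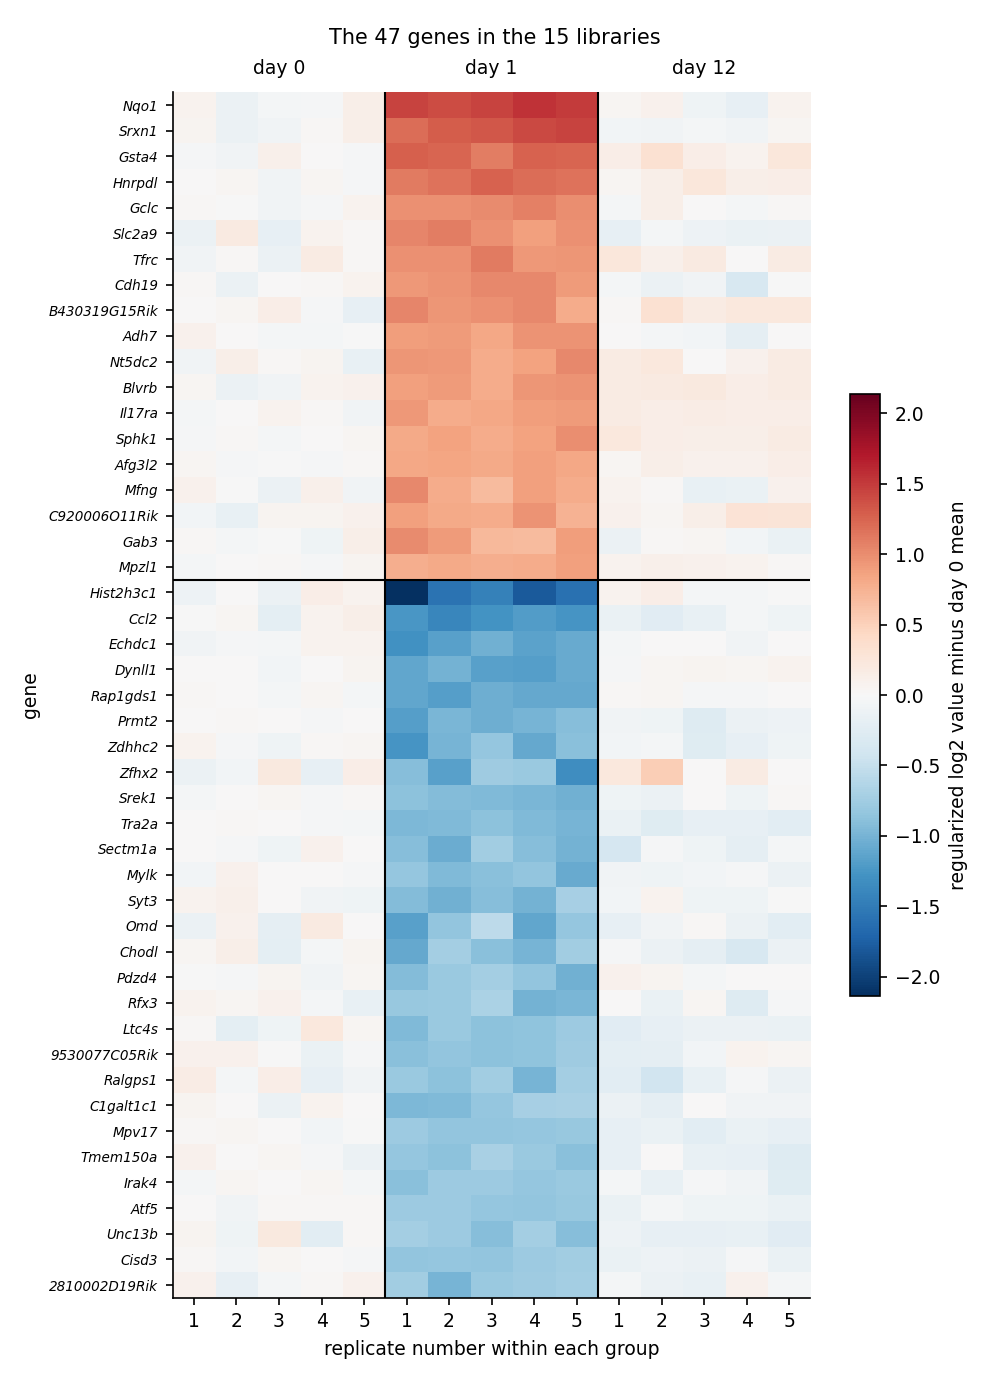
Regularized log2 values of the 47 genes (y axis) in the 15 libraries (x axis, by group and replicate number), each less the day 0 mean of the gene, with red above and blue below that mean. The line across separates the 19 higher from the 28 lower genes, and the 5 libraries of day 1 form the coloured block between the paler libraries of day 0 and day 12.

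Il17ra, a receptor chain for interleukin 17, had 55.3, 57.0, 60.4, 57.8 and 54.2 CPM at day 0, 110, 101, 104, 109 and 109 CPM at day 1 and 65.0, 63.8, 64.2, 63.4 and 63.6 CPM at day 12. No 2 groups of Il17ra overlapped, with day 12 between day 0 and day 1. Sphk1, which makes sphingosine 1-phosphate, was at 35.1 ± 0.899, 66.0 ± 3.67 and 39.7 ± 1.32 CPM, and its day 12 libraries also lay above day 0. Mfng, a fringe glycosyltransferase that modifies Notch receptors, was at 2.30 ± 0.237, 5.12 ± 0.584 and 2.25 ± 0.287 CPM, and Gab3, a docking adaptor of receptor kinases, at 1.19 ± 0.143, 3.07 ± 0.450 and 1.10 ± 0.125 CPM. The cadherin Cdh19 was at 9.61 ± 0.566, 20.2 ± 0.903 and 8.80 ± 0.886 CPM, and Mpzl1, an immunoglobulin-like surface protein, at 56.5 ± 1.64, 101 ± 2.64 and 60.0 ± 1.42 CPM. On a list of Notch genes, 1 of the 17 besides Mfng was called higher (5.88%) and 4 lower (23.5%) at day 1, and 1 (5.88%) and 5 (29.4%) at day 12. The one higher at day 1 was Dll4 (2.53, and -0.17 at day 12), at 0.0594 ± 0.0358, 0.359 ± 0.0828 and 0.0557 ± 0.0349 CPM. Notch1 (-0.91) and Notch3 (-0.89) were among those lower at day 1. The median of the 17 was -0.01 at day 1 and -0.17 at day 12.

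Slc2a9, a transporter of urate, had 4.90, 6.37, 4.72, 5.81 and 5.56 CPM at day 0, 12.7, 13.4, 12.0, 11.1 and 11.9 CPM at day 1 and 4.70, 5.25, 4.97, 4.83 and 4.90 CPM at day 12. Its day 1 libraries lay apart, at 2.24-fold the day 0 mean, and day 12 overlapped day 0. Afg3l2, a subunit of the AAA protease of the inner mitochondrial membrane, was at 56.8 ± 1.48, 104 ± 1.67 and 61.6 ± 1.68 CPM, with day 12 above all of day 0. Nt5dc2, which has a nucleotidase domain, was at 24.4 ± 2.07, 47.6 ± 2.82 and 27.1 ± 1.67 CPM, and the lncRNA B430319G15Rik at 3.33 ± 0.360, 7.65 ± 0.639 and 4.00 ± 0.392 CPM. Across the 19 higher genes the day 1 mean was 1.79-fold to 2.84-fold and the day 12 mean 0.901-fold to 1.20-fold that of day 0.

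Among the lower genes the largest difference was that of Hist2h3c1 (now H3c14), a histone H3 gene at chr3:96246685-96247348. It had 4.46, 4.97, 4.37, 5.66 and 5.27 CPM at day 0, 0.346, 0.930, 1.16, 0.656 and 0.970 CPM at day 1 and 5.26, 5.68, 4.75, 4.76 and 4.92 CPM at day 12. The day 1 libraries lay apart and rest on 27 to 107 counts each. The day 1 mean was 6.09-fold lower, or -2.58 ± 0.170 (SE) on the log2 scale of edgeR and -1.72 on the regularized scale. All of its exon bases are shared with Gm20634 on the same strand, and histone H3 genes are near-identical copies, so the reads could belong to another gene.

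Ccl2 (chr11:82035577-82037452), the chemokine that draws monocytes, had 192, 200, 166, 204 and 211 CPM at day 0, 79.5, 71.6, 78.1, 81.9 and 77.9 CPM at day 1 and 175, 163, 174, 188 and 182 CPM at day 12. It was 2.50-fold lower at day 1, when no library came near those of the other groups, which overlapped. Per kilobase of exon Ccl2 averaged 171, 68.4 and 155 CPM in the groups of day 0, 1 and 12, the highest of the lower genes at each time. Irak4, a kinase below Toll-like and interleukin 1 receptors, was at 16.0 ± 0.541, 8.52 ± 0.347 and 14.8 ± 1.09 CPM. Ltc4s, the leukotriene C4 synthase, was at 11.5 ± 1.46, 5.77 ± 0.322 and 10.2 ± 0.403 CPM, and Sectm1a, a secreted and transmembrane protein, at 1.93 ± 0.157, 0.492 ± 0.137 and 1.65 ± 0.257 CPM.

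On a list of chemokines, interleukins and the TNF family, which holds Ccl2 and Il17ra, 3 of 56 other genes were called higher (5.36%) and 17 lower (30.4%) at day 1, with a median of -0.32. At day 12 these were 9 (16.1%) and 25 (44.6%), with a median of -0.45. Ccl7, another monocyte chemokine, was called lower after 1 day (-1.48 ± 0.047, adjusted p = 2.65e-18) and after 12 days (-1.22 ± 0.047, adjusted p = 3.26e-17). Cxcl2 was called lower after 1 day (-1.44 ± 0.077, adjusted p = 3.23e-14) and was above day 0 after 12 days, short of the fold limit (0.27 ± 0.071, adjusted p = 0.00151).

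**Figure D5:**
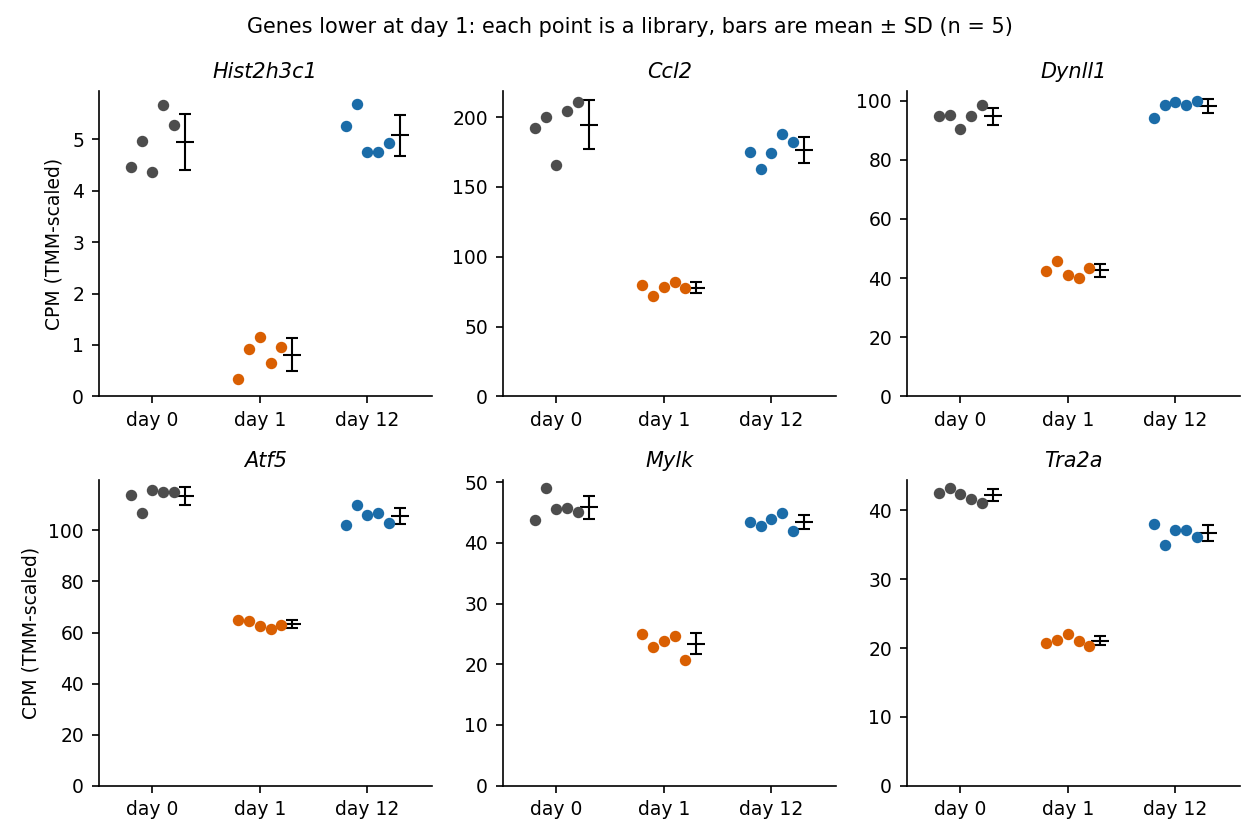
TMM-scaled CPM (y axis, from 0) of 6 genes lower at day 1, by group (x axis), with 1 point per library, 5 libraries per group, and bars for mean ± SD. All day 1 points lie below those of day 0 and day 12, and the day 12 points of Tra2a lie below those of day 0.

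Dynll1, a light chain shared by dynein and other complexes, had 94.7, 95.3, 90.4, 94.7 and 98.5 CPM at day 0, 42.4, 45.8, 41.1, 40.2 and 43.4 CPM at day 1 and 94.0, 98.5, 99.4, 98.4 and 100 CPM at day 12. Rap1gds1, which acts on small GTPases, had 86.9, 86.7, 82.9, 89.2 and 82.9 CPM at day 0, 38.2, 36.5, 40.5, 38.7 and 38.8 CPM at day 1 and 87.5, 88.5, 84.2, 84.8 and 86.4 CPM at day 12. Both were 2.22-fold lower at day 1, and their day 0 and day 12 libraries overlapped. Mylk, the myosin light chain kinase, had 43.8, 49.0, 45.6, 45.8 and 45.1 CPM at day 0, 25.0, 22.9, 23.8, 24.7 and 20.7 CPM at day 1 and 43.4, 42.8, 44.0, 45.0 and 41.9 CPM at day 12. It too stood apart at day 1 alone. None of the 4 myofibroblast markers was called at day 1, when they summed to 473 to 626 CPM against 361 to 412 CPM at day 0, mostly from Acta2. At day 12 they summed to 458 to 579 CPM, and Myh11 (-1.74) and Cnn1 (-2.07) were called lower. Ralgps1, an exchange factor for Ral, was at 2.03 ± 0.328, 0.643 ± 0.140 and 1.64 ± 0.286 CPM. The vesicle release genes Syt3 and Unc13b were at 2.08 ± 0.210, 0.582 ± 0.160 and 2.01 ± 0.168 CPM and at 3.37 ± 0.520, 1.42 ± 0.149 and 2.84 ± 0.135 CPM, and Pdzd4, a PDZ domain protein, was at 10.5 ± 0.445, 5.23 ± 0.516 and 10.8 ± 0.485 CPM.

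Echdc1, which removes ethylmalonyl-CoA, had 60.7, 62.5, 61.4, 67.0 and 66.8 CPM at day 0, 24.6, 27.4, 30.4, 27.5 and 29.0 CPM at day 1 and 62.0, 64.0, 63.9, 60.5 and 64.5 CPM at day 12. Day 1 lay apart at 2.29-fold below day 0, but 86.4% of its exon bases are shared with genes on the opposite strand, Rnf146 among them. Mpv17, of the inner mitochondrial membrane, was at 68.1 ± 1.89, 37.6 ± 0.775 and 60.4 ± 1.42 CPM. Prmt2, an arginine methyltransferase, was at 31.2 ± 0.476, 14.5 ± 1.07 and 28.3 ± 1.62 CPM, and Zdhhc2, a palmitoyltransferase, at 5.52 ± 0.316, 2.15 ± 0.397 and 4.97 ± 0.388 CPM. The day 12 libraries of Mpv17 and Prmt2 lay below all of day 0. C1galt1c1, the chaperone of an enzyme that builds O-glycans, was at 14.2 ± 0.871, 7.45 ± 0.740 and 13.3 ± 0.708 CPM.

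Atf5, Rfx3 and Zfhx2 are transcription factors. Atf5, which takes part in stress responses, had 114, 107, 116, 115 and 115 CPM at day 0, 65.0, 64.5, 62.7, 61.2 and 63.0 CPM at day 1 and 102, 110, 106, 107 and 103 CPM at day 12. Its day 1 mean was 1.79-fold lower, and day 12 overlapped day 0. On a list of endoplasmic reticulum stress and ATF4 genes, 2 of 29 others were called higher (6.9%) and 11 lower (37.9%) at day 1, with a median of -0.38. At day 12 these were 2 (6.9%) and 16 (55.2%), with a median of -0.66. Atf4 was called higher at day 1 (0.72 ± 0.031, adjusted p = 6.3e-16), and Hspa5, the chaperone BiP, was called lower after 1 day (-1.56 ± 0.027, adjusted p = 6.36e-23) and after 12 days (-0.97 ± 0.027, adjusted p = 6.06e-20). Rfx3, a regulator of cilium genes, was at 3.51 ± 0.342, 1.43 ± 0.246 and 3.29 ± 0.392 CPM, and the homeobox gene Zfhx2 at 2.2 ± 0.403, 0.597 ± 0.248 and 2.73 ± 0.656 CPM.

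The remaining lower genes were matrix and membrane proteins and genes of little known function. Omd, the proteoglycan osteomodulin, had 172, 202, 164, 216 and 188 CPM at day 0, 80.5, 102, 126, 84.6 and 103 CPM at day 1 and 167, 180, 191, 172 and 160 CPM at day 12. Its day 1 libraries were spread (99.5 ± 18.2 CPM), yet the highest stayed below every library of the other groups. Chodl, a lectin of the cell membrane, was at 1.99 ± 0.287, 0.555 ± 0.182 and 1.66 ± 0.238 CPM, and the membrane protein Tmem150a at 16.6 ± 1.03, 8.84 ± 0.585 and 14.9 ± 1.14 CPM. 9530077C05Rik was at 2.19 ± 0.241, 0.717 ± 0.0685 and 2.05 ± 0.306 CPM, and the lncRNA 2810002D19Rik at 5.55 ± 0.513, 2.67 ± 0.279 and 5.31 ± 0.482 CPM. Across the 28 lower genes the day 1 mean was 1.79-fold to 6.09-fold below day 0, and the day 12 mean was 0.809-fold to 1.24-fold that of day 0. More than 10% of the exon sequence also belonged to another annotated gene in Ltc4s (26.4%), Zfhx2 (17.9%), Mpv17 (14.4%) and Pdzd4 (10.9%), whose counts could hold reads of that gene.

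Beside the fit across all 14293 tested genes, the calls of the 47 follow from their choice and nothing is read from them. All 19 higher genes were called higher at day 1, against 7.71% of genes tested, and all 28 lower genes were called lower, against 13.4%. None of the 47 was called at day 12 against day 0, where 29.2% of genes were called in either direction. By the adjusted p alone, with no fold limit, 11 of the 19 and 10 of the 28 passed at day 12, against 76.6%, with log2 fold changes of 0.09 to 0.26 and of -0.25 to -0.10. With total counts in place of TMM, which moves the median day 12 log2 fold change of all genes from 0.012 to 0.205, the median over the lower genes went from -0.11 to 0.09 and 8 of them passed, all above 0. The median over the higher genes went from 0.12 to 0.31, and 15 of them passed in place of 11, all above 0. At day 12 against day 1, all 19 were called lower, against 8.53%, and all 28 were called higher, against 10.6%. The libraries of day 1 and day 0 did not overlap in any of the 47, as in 62.3% of the 12650 genes. Those of day 12 and day 0 did not overlap in 5 of the 19 and in 3 of the 28, against 69.1%. The 95% interval of the day 12 log2 fold change was at most 0.57 wide for the higher genes and 0.80 wide for the lower ones.

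A library left out of the choice was then read for each of the 15 libraries in turn, although the authors had computed the regularized values on all 15 together. A day 1 library left out lay on the chosen side of the day 0 mean in 93 of 93 cases for the higher genes and 139 of 139 for the lower ones, and passed the limit of 0.8 in 86.0% and 69.1% of them. A day 12 library left out lay within 0.2 of the day 0 mean in 82.1% of 95 and 79.2% of 144 cases. With a day 0 library left out, the day 1 mean lay at least 0.8 from it in 87.0% of 92 and 81.6% of 125 cases. The cases count the same genes again in each library and are not independent. The limit of 0.8 in the other libraries nearly fixed the side beforehand, and no share over all genes was computed. Of the 19 higher genes 12, and of the 28 lower genes 16, were chosen in all 15 rounds. Ralgps1 was chosen least often, in 7 rounds, followed by Unc13b in 9 and Tra2a in 10. The sample numbers in the titles form a larger series of 11 libraries and a smaller one of 4, with no meaning stated. On the larger series alone, 18 of the 19 and 22 of the 28 were chosen, and the higher gene lost was Blvrb.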

How the data were processed

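Total RNA of 15 libraries (3 groups of 5) was sequenced. The submitters' processing notes name FastQC, TopHat2 2.0.13, Bowtie2 2.2.1, HTSeq, DESeq2 and the mouse build mm10. The authors deposited raw read counts per gene and regularized log2 values made from them with DESeq2, and whether counting used the strand is not given in the sources used here. Tables with the authors' own fold changes and p-values between groups were not used. The 47 genes, the gene lists and the motifs were chosen with earlier results of these data known, and the NRF2 and iron lists and the antioxidant motif were added after the members were seen. Genes were named by these rules: the 15 members with the largest day 1 difference and the 5 with the highest CPM in each direction, members of a gene list, and genes beside each limit. Every member was given a value. Genes named from lists outside the 47, and those between neighbouring members, were chosen after their values were seen. Counts were fitted in R 4.3.3 with edgeR 4.0.16 (filterByExpr, TMM, glmQLFit, glmQLFTest, all 15 libraries in 1 fit, Benjamini-Hochberg over 14293 genes), and DESeq2 1.42.0 served as an alternative. The fit was tested on simulated counts. Selection, promoter motifs and figures used Python 3.11.15. Gene positions and promoters came from RefSeq GRCm38.p6 (47 of 47 genes matched) and exon lengths from GENCODE (46 of 47). Total counts of 64648178 to 133270973 put the level of 3 counts at 0.0225 to 0.0464 CPM. Alternatives covered the limits, the count minimum, the scaling, the filter, the tool, a replicate block, the label number series and each library left out.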

Additional observations from a re-analysis of the deposited data

Results flagged for a closer look

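In 8 of 141 groups of 5 library values, 1 for each of the 47 genes and 3 groups, the highest or lowest library lay further from the rest than the 95% critical value of Dixon's test, which chance gives in about 1 group of 20. In the higher genes these were Srxn1 at day 12 (137 CPM in replicate 5, the others 126 to 129), Gsta4 at day 1 (58.0 CPM in replicate 3, the others 64.2 to 65.9) and Tfrc at day 1 (187 CPM in replicate 3, the others 164 to 171). In the lower genes they were Dynll1 at day 12 (94.0 CPM in replicate 1, the others 98.4 to 100), Prmt2 at day 12 (25.4 CPM in replicate 3, the others 28.4 to 29.4) and Atf5 at day 0 (107 CPM in replicate 2, the others 114 to 116). The last were Cisd3 at day 12 (21.1 CPM in replicate 4, the others 19.1 to 19.7) and 2810002D19Rik at day 1 (2.18 CPM in replicate 2, the others 2.70 to 2.87).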

How the results depend on the processing

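The number of lower genes depended on the scale, while the number of higher genes stayed within 1.5 times. Against 28 on the regularized values, 61 genes were lower with log2 CPM under TMM scaling (22 shared), 89 under total counts (23 shared), 60 with counts over size factors (22 shared) and 17 with a mean raw count of 500 or more. A day 1 limit of 1.0 left 5 higher and 7 lower genes and one of 0.6 gave 54 and 91, and a day 12 limit of 0.1 left 7 and 12. Leaving out each library gave 17 to 20 higher and 23 to 30 lower genes. Over all genes 3020, 4172 and 2729 were called at day 1, at day 12 and between them. These were 1164, 1688 and 898 with a mean of at least 10 CPM, where 29 of the 47 members were tested, and 10226, 10950 and 9598 with no fold limit. Leaving out each library gave 2980 to 3055, 4139 to 4221 and 2697 to 2752. Scaling by total counts moved the share of higher calls at day 12 to 64.1% (44.4% under TMM), and the share between day 12 and day 1 to 72.7% (55.3% under TMM), where 14 of the 19 higher genes were then called lower. The day 1 log2 fold change of each of the 47 kept its direction and call in all 376 values computed for it. These came from other scalings, DESeq2, the replicate block, the label number series and the lowest and highest value with a library left out. The filters were not among them, and such an outcome follows from the choice of the 47 on the same libraries. With the replicate number as a block the counts were 3011, 4177 and 2718, and no member changed its call at day 12. Of 15 correlations of same-numbered libraries, 11 were above 0 and none reached 0.1 (-0.0255 to 0.0436), so the numbers were not taken as pairs. In 17 of 30 checks a library correlated best with its own number among 5, where 1 in 5 would do so by chance. This is a hint from the data, and not from the design, that same-numbered libraries may be related. An alternative chosen after seeing the data, the larger series of 11 libraries, gave 2914, 4170 and 2591.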
